A study of Solanum lycopersicum with 32 samples.

Results

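RNA polymerase II (RNAPII) and trimethylation of lysine 4 of histone H3 (H3K4me3) were compared along the genome of unheated tomato leaves. The regions were taken from chromatin immunoprecipitation followed by sequencing (ChIP-seq), from the 2 RNAPII and the 2 H3K4me3 peak lists of the 0 h time point, which are 4 of the 30 peak lists and 32 samples of the series. Peaks of both libraries of a target with a q-value of at most 0.05 were merged into regions, and a region counted where each library had such a peak. This gave 53597 RNAPII regions of 69537 found with either library, and 31962 H3K4me3 regions of 41465, on chromosomes 1 to 12. All plants were wild type (WT) of Solanum lycopersicum cv. M82, a processing tomato, 4 weeks old and grown in chambers at 24 °C with 16 h of light. The leaves of the 0 h groups had received none of the 45 °C heat that the 1 h and 6 h groups of the series received. The material was whole leaf, so peaks of both targets over the same bases may come from different cells. The peak lists give positions on the M82 assembly. No gene model of that assembly was used here, so no gene, strand or leaf marker was assigned to any region.

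RNAPII transcribes protein-coding genes and is bound at the start, along the body and around the end of the genes it transcribes. H3K4me3 is placed on nucleosomes by methyltransferases of the Trithorax type and, in plants as in animals, lies mainly just inside the start of transcribed genes. The comparison asked where the polymerase and the mark coincide, how far RNAPII reaches past the mark, and where each occurs without the other.

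The libraries of a target were first compared with each other. RNAPII had 67224 peaks in library 1 and 67542 in library 2. H3K4me3 had 38173 peaks in library 1 and 41226 in library 2. The RNAPII regions covered 71.96 Mb, against 48.9 Mb for the H3K4me3 regions. The median peak was 576 and 558 bp wide for RNAPII, against 1057 and 1095 bp for H3K4me3. RNAPII peaks were therefore more numerous and narrower. The number of sequenced fragments over a summit was recovered from the fold enrichment and p-value of each peak. Its median was 53 and 46 in the RNAPII libraries, against 75 and 85 in the H3K4me3 libraries, over a lowest background of 9.53 and 7.98 fragments for RNAPII and of 4.70 and 6.89 for H3K4me3. The fragments of matched peaks differed between the libraries of 1 target by less than sampling noise, with a mean chi-square per peak of 0.659 for RNAPII and 0.411 for H3K4me3, while libraries of different time points gave 3.34 to 9.09 for RNAPII and 1.03 to 2.28 for H3K4me3. Since summits are chosen as maxima, they can vary less than a random base would. Duplicate reads had been removed, which limits the fragments that can be counted at a base. The highest H3K4me3 summits held 276 and 274 fragments, although the lowest backgrounds of these libraries differed. The part of this limit in the chi-square and in the highest folds was not tested. Each pair was counted as 1 sample, values are given per library, and no SD or p-value is given: a spread between plants cannot be estimated.

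A smaller share of RNAPII regions than of H3K4me3 regions met the other target. Of the RNAPII regions 24323 (45.4%) overlapped an H3K4me3 region by at least 1 bp, and of the H3K4me3 regions 23269 (72.8%) overlapped an RNAPII region. For scale, 11.9% of all 500 bp windows of the 12 chromosomes met an RNAPII region and 7.96% met an H3K4me3 region. Among windows with RNAPII 36.9% also held H3K4me3, and among windows with H3K4me3 55.1% also held RNAPII, so both shares lay several times above the share over all windows. The same 70292 windows enter both shares, so their order follows from the larger number of windows with RNAPII. A further 20918 RNAPII regions (39.0%) were apart, with no H3K4me3 peak of either library within 1000 bp, against 4875 H3K4me3 regions (15.3%) apart from RNAPII. The remaining 8356 RNAPII and 3818 H3K4me3 regions were neighbours of the other target. Most of these, 7374 and 2648, lay within 1000 bp without overlap, and the others met a peak of only 1 library.

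The counts of apart regions depended on how many peaks were admitted. With the strongest 38173 peaks of every library, 11209 RNAPII regions (33.1%) and 8435 H3K4me3 regions (26.7%) were apart. When 1 library was enough for an H3K4me3 region, 8891 H3K4me3 regions were apart without library 1 and 7635 without library 2. The RNAPII regions thus had the larger share apart under each of these settings, while the size of the H3K4me3 class moved by more than 1.5 times.

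Co-occupied regions were wider and more enriched than apart regions in both targets. RNAPII regions with H3K4me3 had a median width of 932 bp and a median fold of 5.05 and 5.11 in the 2 libraries, and apart RNAPII regions had 660 bp and a fold of 3.40 and 3.46. In fragments over the summit these were 87 and 74 for co-occupied RNAPII regions and 51 and 43 for apart ones. The contrast was larger in H3K4me3. Co-occupied H3K4me3 regions were 1515 bp wide with a fold of 17.0 and 14.8, and apart ones were 801 bp wide with a fold of 3.14 and 3.52. The spread within a class was wide, and the ninetieth percentile of the fold of apart H3K4me3 regions was 8.54 and 9.36. By length, co-occupied regions held 62.0% of all RNAPII bp and 81.7% of all H3K4me3 bp.

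Ranking by fold showed how steeply co-occupancy depended on enrichment. From the lowest to the highest of 10 equal classes of RNAPII fold, the share with H3K4me3 was 27.6% in the lowest and 69.3% in the highest when ranked in library 1, and 28.6% and 70.0% when ranked in library 2. A substantial part of the most enriched RNAPII regions, 22.2% and 21.9%, was still apart from H3K4me3. For H3K4me3 the share with RNAPII was 35.4% and 35.3% in the lowest class and 99.2% and 98.3% in the highest, and only 0.125% and 0.5005% of the highest class was apart. A strong H3K4me3 region without RNAPII nearby was thus rare in unheated leaves, and a strong RNAPII region without H3K4me3 was not. Peaks of low fold are also those nearest to the limit of detection, and the part of detection in their lower shares was not tested. RNAPII regions also widened along these classes, from a median of 455 bp in the lowest to 3182 bp in the highest (library 1). The part of width in the shares was not tested. At like width the fold contrast in H3K4me3 depended on the width class. Among regions of 1000 to 2000 bp the median H3K4me3 fold was 18.2 and 15.8 with RNAPII, against 3.95 and 4.54 apart. Among the 3546 regions under 500 bp it was 2.59 and 2.68 with RNAPII, against 2.51 and 2.62 apart, so there the classes were close. The RNAPII fold was close between its classes at 1000 to 2000 bp, 5.47 and 5.53 with H3K4me3 against 5.12 and 5.17 apart. Under 500 bp it was 2.67 and 2.70 against 2.48 and 2.52. Above 2000 bp the RNAPII contrast was larger, 9.65 and 10.0 against 7.51 and 7.69.

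**Figure D1:**
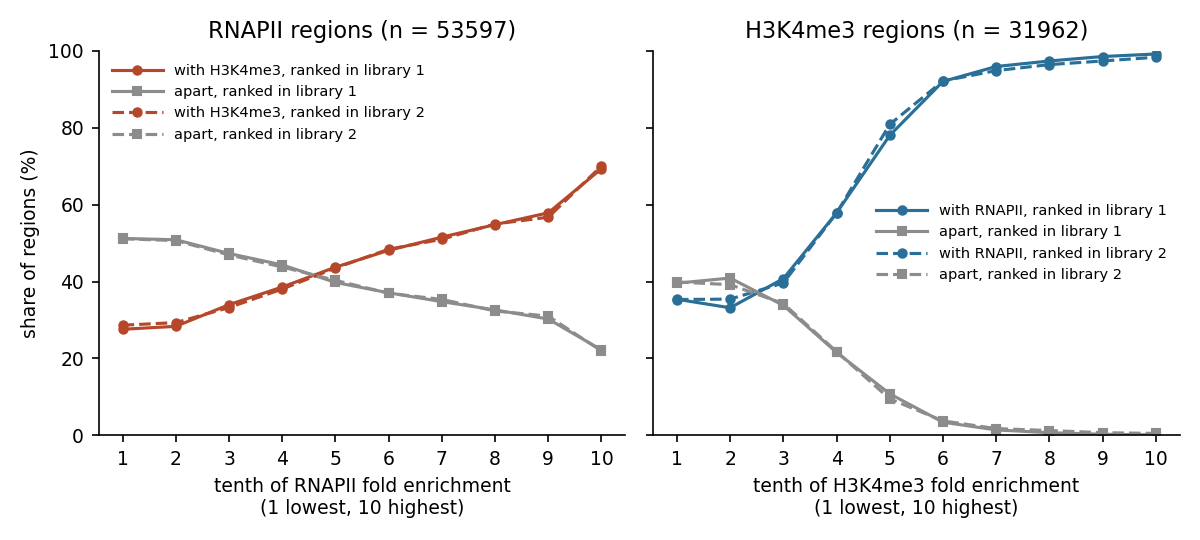
Share of RNAPII regions (left) and of H3K4me3 regions (right) that were co-occupied by the other target (coloured circles) or apart from it (grey squares), in percent, by 10 equal classes of their own fold enrichment. Solid lines rank by library 1 and dashed lines by library 2; the share of H3K4me3 regions with RNAPII is above 90% from the sixth class on, while that of RNAPII regions with H3K4me3 ends near 70.0%.

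The 5 co-occupied H3K4me3 regions with the highest RNAPII fold lay at 3 loci. On chromosome 6 from 10678758 to 10681016, RNAPII had a fold of 30.5 and 34.6 (357 and 346 fragments over the summit) and H3K4me3 had 19.0 and 15.1 (226 and 258 fragments). On chromosome 1 an RNAPII region with a fold of 28.6 and 31.5 met H3K4me3 from 1005025 to 1005474 with a fold of only 3.07 and 2.86, and again from 1006853 to 1009946 with a fold of 20.4 and 18.6. On chromosome 10 an RNAPII region with a fold of 28.2 and 31.7 met H3K4me3 from 51346230 to 51346639 with a fold of 3.56 and 2.65, and from 51346714 to 51347951 with a fold of 23.3 and 22.2. At the last 2 loci, a strong and a weak H3K4me3 region thus shared the same RNAPII peak. The libraries of each target gave close values at every one of these regions.

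Within co-occupied regions RNAPII did not lie over the whole mark. The overlap covered a median of 44.0% of an H3K4me3 region, with 25.7% and 100% as the lower and upper quartile. To describe the geometry without multiple partners, 15444 H3K4me3 regions were taken that met exactly 1 RNAPII region which met no other H3K4me3 region. RNAPII crossed 1 edge of the H3K4me3 region in 11434 of these (74.0%). It ran from edge to edge in 3372 (21.8%) and lay wholly within the mark in 638 (4.13%). In the most common arrangement the RNAPII region was 684 bp wide and the H3K4me3 region 1423 bp (medians). An overlap of a narrow with a wide region often crosses an edge by geometry alone, which was not subtracted.

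The RNAPII summit lay close to an edge of the mark in these regions. It fell inside the H3K4me3 region in 75.2% and 74.7% of cases, and its median distance to the nearer edge was 139 and 137 bp, with 71.8% and 71.7% within 200 bp of an edge. The way between the nearer edge and the middle of the H3K4me3 region was cut into 5 equal steps. The outermost step held 56.4% and 57.4% of the inside RNAPII summits and the next one 32.8% and 31.6%, while the innermost held 2.57% and 2.65%. The summit of the H3K4me3 region itself was in the outermost step in 3.05%, in the following 2 steps in 29.5% and 35.6%, and in the innermost in 12.6%. These shares are a description only. The steps were cut from the H3K4me3 peaks themselves, so their own summits lie away from an edge by construction, and a narrow RNAPII region that crosses an edge has its summit near it. No value for placement by geometry alone was computed.

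**Figure D2:**
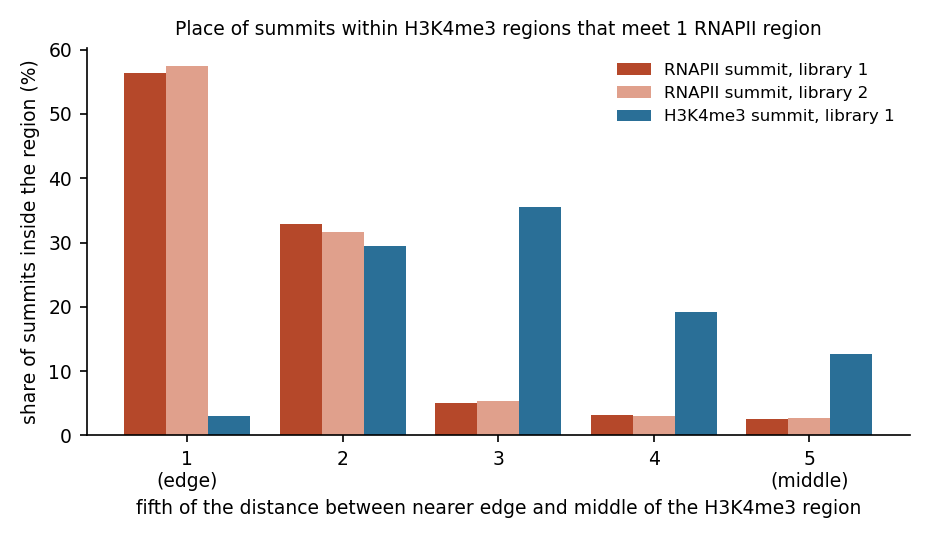
Share of summits (percent) in each of 5 equal steps between the nearer edge (1) and the middle (5) of the H3K4me3 region, for 15444 H3K4me3 regions that met a single RNAPII region. Dark and light red bars are RNAPII summits of libraries 1 and 2 that fell inside the region, and blue bars are the H3K4me3 summits of library 1; 56.4% and 57.4% of RNAPII summits, and 3.05% of H3K4me3 summits, lie in the outermost step.

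Most H3K4me3 regions that met exactly 2 RNAPII regions had RNAPII across both edges. There were 3239 H3K4me3 regions (13.9% of the co-occupied ones) with 2 RNAPII regions, of median width 1993 bp, and 364 with 3 or more. In 2550 of the 3239 (78.7%) the RNAPII regions crossed both edges of the mark and left a gap between them, and the median gap over all 3239 was 525 bp. In 648 they crossed 1 edge and in 41 (1.27%) none. Seen from the polymerase, 21865 RNAPII regions met 1 H3K4me3 region, 2065 met 2 and 393 met 3 or more, up to 7. Their median widths were 840, 3309 and 7685 bp, so the RNAPII regions that joined several H3K4me3 regions were the long ones.

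The distance between summits was large relative to its repeatability. From the summit of an H3K4me3 peak that overlapped an RNAPII peak, the nearest RNAPII summit was at a median of 309 to 324 bp over the 4 library pairs, and from an RNAPII summit the nearest H3K4me3 summit was at 327 to 347 bp. Summits of the same target were at a median of 36 and 38 bp between RNAPII libraries, and of 50 and 41 bp between H3K4me3 libraries. Only 9.94% to 11.5% of H3K4me3 summits had an RNAPII summit within 100 bp, against 74.0% to 76.8% between RNAPII libraries and 63.5% to 70.3% between H3K4me3 libraries. The distance exceeded 1000 bp for 15.1% to 16.5% of H3K4me3 summits. The median distance was thus 6 or more times the repeat distance in each target.

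**Figure D3:**
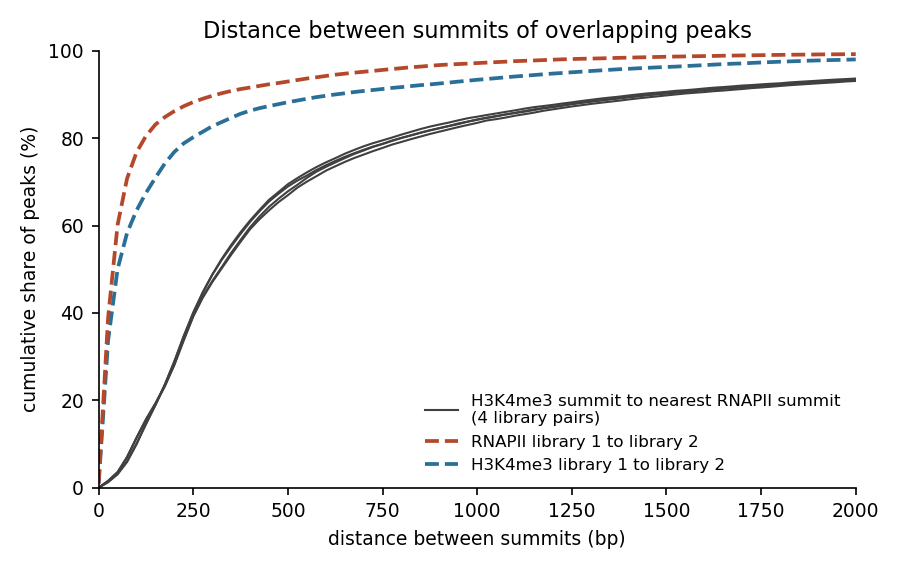
Cumulative share of peaks (percent) by distance between summits (bp). The 4 black lines are the H3K4me3 to nearest RNAPII distances of the library pairs, with medians of 309 to 324 bp, and the dashed lines are the distances between the RNAPII libraries (red, median 36 bp) and between the H3K4me3 libraries (blue, median 50 bp).

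RNAPII commonly extended past the mark on 1 side. Of all RNAPII bp 69.6% lay outside H3K4me3 regions, against 55.3% of H3K4me3 bp outside RNAPII regions. Over the 4 library pairs these shares were 69.1% to 71.7% and 54.7% to 58.6%. Both shares rest on the same overlapping bp, so their order follows from the larger total length of the RNAPII regions. Of the 23269 co-occupied H3K4me3 regions, 13582 (58.4%) had RNAPII past 1 edge only, 9002 (38.7%) past both edges and 685 (2.94%) past none. On the side where it reached further, RNAPII extended by a median of 549 bp, with quartiles of 211 and 1633 bp. On the other side the median was 0 bp, with an upper quartile of 287 bp. The longer side exceeded 2000 bp in 4782 regions (20.6%) and 5000 bp in 1572 (6.76%), and the shorter side exceeded 2000 bp in 640 (2.75%). These lengths run to the outer end of the RNAPII regions, so bases under a further H3K4me3 region count as well. This concerns the 2065 RNAPII regions that met 2 H3K4me3 regions and the 393 that met 3 or more.

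The longer side in 1 RNAPII library was not the shorter side in the other for 91.8% and 91.7% of regions. Regions with equal reach on both sides in the second library, such as 0 bp on each, are included in these shares. When library 1 set the side and library 2 gave the values, the medians were 387 bp on the chosen side and 0 bp on the other. With the roles exchanged they were 425 and 0 bp. Because the libraries agree within sampling noise, this shows repeatability and not a separate draw of plants. The median of 549 bp depended on the processing: it was 998 bp when peaks of a library were joined across gaps of up to 500 bp, and 379 to 660 bp with any 1 library left out.

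**Figure D4:**
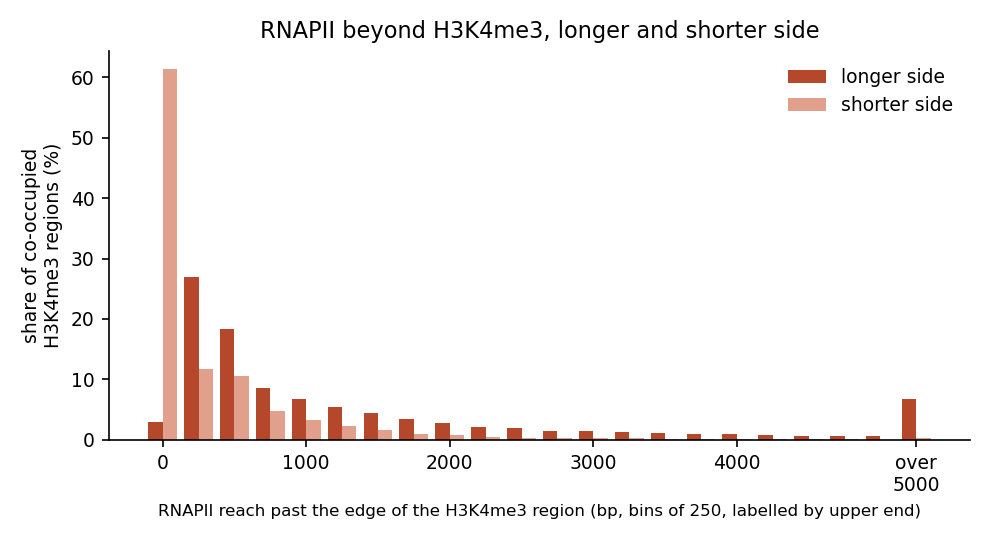
Share of the 23269 co-occupied H3K4me3 regions (percent) by the length over which RNAPII regions reached past their edges, in bins of 250 bp with the zeros and the values above 5000 bp in bins of their own. Dark bars are the longer side (median 549 bp) and light bars the shorter side (median 0 bp).

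The reach of RNAPII grew with its enrichment. In 4 equal classes of RNAPII fold, from the weakest to the strongest, the longer side had medians of 213, 340, 744 and 2286.5 bp, while the width of the H3K4me3 region changed less, from medians of 1344.5 bp to 1808 bp. The shorter side had a median of 0 bp in the first 3 classes and of 394 bp in the strongest. RNAPII regions are themselves wider at higher fold, with a median of 3182 bp in the highest of 10 classes against 455 bp in the lowest (library 1). The extension and the fold therefore come from the same peaks and are no independent measures.

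The longest extensions far exceeded these medians. On chromosome 2 an RNAPII region from 46906234 to 46945980 reached 35053 bp past H3K4me3 at 46941287 to 46945550 on 1 side and 430 bp on the other. RNAPII had a fold of 14.1 and 16.8 there and H3K4me3 of 14.9 and 14.4. A second locus on chromosome 2, with RNAPII from 46960530 to 46990804, reached 26798 bp past H3K4me3 at 46987328 to 46990190. Both had a single H3K4me3 region at 1 end. On chromosome 1 an RNAPII region from 72393947 to 72425101 had H3K4me3 at each end, at 72394528 to 72397061 and at 72424645 to 72426122, which gave the extensions of 28040 and 30698 bp. On chromosome 3 RNAPII from 46080515 to 46108854 reached 26179 bp past H3K4me3 at 46106694 to 46108607. All 5 regions kept peaks of both targets in both libraries at 1 h and 6 h.

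RNAPII regions apart from H3K4me3 were mostly not remote from it. The nearest H3K4me3 peak was at a median of 3177 bp, with quartiles of 1887 and 5712 bp. Within 2 kb lay 27.7% of the 20918 regions, between 2 and 5 kb 42.3%, and beyond 20 kb only 691 (3.30%). With 5000 bp in place of 1000 bp the class fell to 6264 regions. The nearest H3K4me3 region was itself co-occupied for 84.9% of apart RNAPII regions, against 72.8% of all H3K4me3 regions. Of 15406 intervals of 3 to 20 kb between neighbouring H3K4me3 regions, 6683 (43.4%) held an apart RNAPII region, 3529 a single one and 3154 at least 2. Around the limit of 1000 bp the regions differed little, with a median fold of 3.44 and 3.51 for those at 750 to 1000 bp and of 3.35 and 3.39 for those just beyond it.

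H3K4me3 regions apart from RNAPII had another distribution of distances. Their median distance to the nearest RNAPII peak was 4604 bp, but the upper quartile was 16592 bp and 1084 of the 4875 (22.2%) lay more than 20 kb away. Few of them met an RNAPII peak that missed the q limit: 129 (2.65%) overlapped a peak of either full deposited list. The same held for H3K4me3 peaks on 163 apart RNAPII regions (0.779%). The deposited lists thus hold almost no weak peaks that the q limit had hidden at these regions. The q limit kept 91.0% to 93.7% of a list, so few such peaks could be found anywhere. These small shares therefore say little about weak signal at the apart regions. Signal below the authors' p cutoff of 0.05 was not analysed here.

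The apart regions with the strongest enrichment were clear in both libraries. For RNAPII the first was on chromosome 1 from 84331532 to 84333297, with a fold of 22.3 and 24.3 and 273 and 263 fragments over a background of 11.3 and 9.87. The nearest H3K4me3 peak was 2722 bp away. On chromosome 8 from 55819045 to 55821229 RNAPII had a fold of 21.9 and 23.9, and no acetylation list except 1 of H3K18ac had a peak there. The others were on chromosome 4 from 59613015 to 59619686 (21.6 and 21.4), a region of 6672 bp, on chromosome 5 from 67289747 to 67290938 (19.9 and 21.4) and on chromosome 7 from 56223320 to 56224442 (19.7 and 21.0). All 5 had RNAPII peaks in both libraries at 1 h and 6 h, and none had an H3K4me3 peak at either time.

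For H3K4me3 the strongest apart region was on chromosome 8 from 57025972 to 57027081, with a fold of 24.9 and 23.2 and 185 and 237 fragments, at 10615 bp from RNAPII. The next were on chromosome 11 from 8201121 to 8202602 (22.2 and 22.0), on chromosome 8 from 58542521 to 58543736 (22.8 and 20.3), on chromosome 12 from 62283099 to 62284188 (23.0 and 20.04) and on chromosome 1 from 80654979 to 80656410 (21.0 and 19.9). Their H3K4me3 fold was above the median of co-occupied H3K4me3 regions, 17.0 and 14.8, while the highest of any peak was 36.5 and 31.0. All 5 carried H3K9ac and H3K27ac in both libraries at 0 h. H3K18ac was found in both libraries at the regions of chromosomes 11 and 1, in 1 library at that of chromosome 12 and in neither at both regions of chromosome 8. All 5 had RNAPII peaks in both libraries at 1 h. At 6 h the first 2 still had them in both libraries, the next 2 in 1 library, and the last in none.

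The widest H3K4me3 regions without RNAPII had a lower fold than the strongest ones. The first, on chromosome 10 from 2298659 to 2306313, spanned 7655 bp with a fold of 7.54 and 7.40. The others were on chromosome 7, from 59358313 to 59364148 (5836 bp, fold 3.47 and 3.73) and from 66697712 to 66703205 (5494 bp, fold 5.82 and 6.75). All 3 had H3K18ac and H3K27ac in both libraries and H3K9ac in neither at 0 h. Like the strongest apart regions they met RNAPII at 1 h, the first and the last in both libraries and the other in 1, and none met it at 6 h.

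Histone acetylation, which the definition of the classes did not use, separated them to an extent that depended on the mark. Between co-occupied and apart H3K4me3 regions, H3K9ac differed far more than H3K18ac or H3K27ac. H3K9ac, H3K18ac and H3K27ac are acetylations of H3 that accompany open and transcribed chromatin. On co-occupied regions all were nearly general: H3K9ac met 95.6% and 95.1% of co-occupied RNAPII regions and 96.9% and 96.8% of co-occupied H3K4me3 regions (H3K9ac libraries 1 and 2). Co-occupied H3K4me3 regions met H3K18ac in 97.3% and 96.9%, and H3K27ac in 98.1% and 97.8%. Apart RNAPII regions met H3K9ac in 62.0% and 57.1%, H3K18ac in 85.3% and 84.6%, and H3K27ac in 44.2% and 41.2%. Apart H3K4me3 regions met H3K9ac in 34.3% and 32.3%, H3K18ac in 93.3% and 92.9%, and H3K27ac in 96.5% and 96.1%. RNAPII without H3K4me3 was therefore more often with H3K9ac, and H3K4me3 without RNAPII more often with H3K27ac. The differences, of over 20 points, were far above the distance between libraries. A region met a mark at any overlap with a peak, and co-occupied regions were wider than apart ones. The part of width in these shares, and that of fold in the RNAPII classes, was not tested. Neighbouring RNAPII regions met H3K9ac in 65.8% and 60.3% and H3K27ac in 53.1% and 50.3%. Neighbouring H3K4me3 regions met H3K9ac in 65.2% and 62.7% and H3K27ac in 93.5% and 92.6%. The H3K18ac lists were the longest and covered 137 Mb in each library at 0 h, against 73.2 and 68.3 Mb for H3K9ac and 79.4 and 75.9 Mb for H3K27ac.

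The combination of marks differed between the apart and the co-occupied classes, and between apart RNAPII and apart H3K4me3 regions. H3K18ac and H3K27ac in both libraries with H3K9ac in neither was found at 2653 apart H3K4me3 regions (54.4%), at 2182 apart RNAPII regions (10.4%) and at 320 co-occupied H3K4me3 regions (1.38%). The reverse, H3K9ac and H3K18ac in both with H3K27ac in neither, was found at 4330 apart RNAPII regions (20.7%) and at 12 apart H3K4me3 regions (0.246%). All 3 acetylations were present in both libraries at 21.4% of apart RNAPII regions, at 25.4% of apart H3K4me3 regions, and at 88.6% and 92.2% of co-occupied RNAPII and H3K4me3 regions. None was found in any library at 2355 apart RNAPII regions (11.3%).

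The lower H3K9ac of apart H3K4me3 regions was also seen at like H3K4me3 enrichment. Among regions with a fold under 3 in the weaker library, H3K9ac met 81.7% and 81.0% of the 2122 co-occupied and 15.9% and 13.7% of the 2483 apart H3K4me3 regions. At a fold of 3 to 6 the shares were 92.9% and 91.7% against 38.8% and 36.3%. At a fold of 12 or more, where 219 apart regions remained, they were 99.9% and 99.9% against 96.8% and 95.9%. The contrast was thus large at weak marks and small at strong ones. The share of apart H3K4me3 regions with H3K9ac, 33.3% as the mean of the libraries, was 52.6% with equal numbers of peaks, and 21.5% and 24.6% without H3K4me3 library 1 or 2, each below the share of apart RNAPII regions under the same setting (71.6%, 59.7% and 59.8%).

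With heat most apart regions still met their own target, least so the apart H3K4me3 regions at 1 h. These values compare lists called separately at each time against the single input sample, which is labelled 0 h, and later unheated leaves were not analysed here, so the effect of heat and that of the hour cannot be told apart. Of the apart RNAPII regions, 84.5% and 84.8% met RNAPII peaks at 1 h and 82.9% and 80.8% at 6 h, and at most 1.19% met H3K4me3 at either time. Of the apart H3K4me3 regions, 62.6% and 72.4% met H3K4me3 at 1 h and 90.1% and 96.2% at 6 h. At 1 h 23.5% of them met it in neither library, while 96.5% and 97.6% of co-occupied H3K4me3 regions met it. These classes also differed in H3K4me3 fold at 0 h, with medians of 3.14 and 3.52 for apart and 17.0 and 14.8 for co-occupied regions. The part of fold in the shares at 1 h was not tested. RNAPII was found on 21.6% and 21.1% of the apart H3K4me3 regions at 1 h and on 7.88% and 7.14% at 6 h. Co-occupied H3K4me3 regions met it in 96.7% and 96.7% at 1 h and in 94.3% and 93.8% at 6 h. For scale, 11.9% of all 500 bp windows met an RNAPII region at 0 h, and windows were not counted at 1 h or 6 h. A total of 859 apart H3K4me3 regions (17.6%) met RNAPII in both libraries at 1 h, of which 546 met it in neither and 198 in both at 6 h. These 859 had a median H3K4me3 fold at 0 h of 6.78 and 7.38, against 2.96 and 3.26 for the other 4016. The RNAPII lists were longest at 1 h (88.6 and 87.7 Mb), against 69.7 and 67.0 Mb before heat and 64.3 and 61.4 Mb after 6 h, and the part of the longer lists in the share at 1 h was not tested.

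Acetylation moved differently on the apart classes, as drawn in the plot of acetylation shares by time. From the 0 h level given above, the H3K9ac share of apart RNAPII regions was lower after 1 h (32.1% and 33.8%) and after 6 h (36.9% and 39.3%). On apart H3K4me3 regions the H3K9ac share was lower after 1 h (25.01% and 25.8%) but higher after 6 h (51.3% and 52.5%). H3K27ac on apart RNAPII regions was at 44.2% and 41.2%, 65.4% and 59.3%, and 60.4% and 52.8% at the 3 times, while it stayed between 96.1% and 97.3% on apart H3K4me3 regions. H3K18ac met fewer apart H3K4me3 regions at 1 h, 78.1% and 76.4%, than at 0 h or 6 h. The H3K9ac lists were shorter after heat, with 50.1 and 52.4 Mb for 1 h and 50.5 and 53.5 Mb for 6 h, so their total length moved in the same direction as the share on apart RNAPII regions. The H3K27ac lists were longer after heat, with 96.5 and 89.0 Mb for 1 h and 94.8 and 86.3 Mb for 6 h, and moved with the H3K27ac share of apart RNAPII regions too. The part of list length in these shares was not tested.

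**Figure D5:**
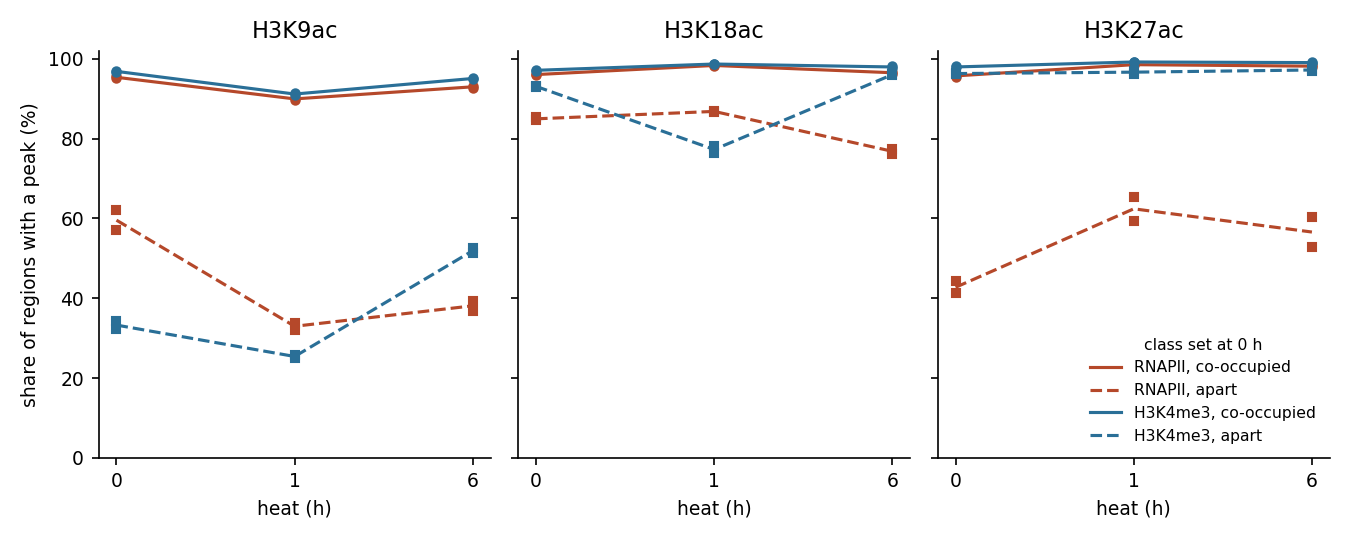
Share of regions (percent) that met a peak of H3K9ac, H3K18ac or H3K27ac by hours of heat, for the classes set at 0 h. Red is RNAPII regions and blue H3K4me3 regions, circles and solid lines are co-occupied and squares and dashed lines apart regions; symbols are the 2 libraries and lines their mean, with the times spaced evenly and not to scale. The H3K9ac shares of the apart classes cross between 1 h and 6 h.

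When the classes were formed anew at each time, co-occupancy was highest at 1 h. H3K4me3 was found at 45.4% of RNAPII regions at 0 h, 49.4% at 1 h and 44.2% at 6 h. RNAPII was found at 72.8%, 84.6% and 69.2% of H3K4me3 regions, and 4875, 2012 and 5756 H3K4me3 regions were apart. The classes were formed once per time point, so no error can be given to these differences. The RNAPII lists were also longest at 1 h, 88.6 and 87.7 Mb against 69.7 and 67.0 Mb at 0 h, and the part of their length was not tested. At 0 h the other marks met more RNAPII regions than H3K4me3 did: 74.1% overlapped H3K9ac, 89.97% H3K18ac and 65.6% H3K27ac, and 10.99%, 3.88% and 12.1% were apart from them. Regions of these marks covered 73.7, 143.8 and 80.5 Mb, against 48.9 Mb for H3K4me3, and the part of that length was not tested.

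Along the chromosomes the apart H3K4me3 regions were placed differently from the rest. Chromosomes were cut by the distance to their nearer end relative to their length, at 0.167 and 0.333, into distal, intermediate and middle zones of equal size. The middle zone held 7.17% of apart and 7.52% of co-occupied RNAPII regions, and the share of RNAPII regions with H3K4me3 was 45.1%, 45.8% and 47.6% from the distal to the middle zone. It also held 19.98% of apart and 7.37% of co-occupied H3K4me3 regions. The share of H3K4me3 regions with RNAPII was 77.4% in the distal, 64.9% in the intermediate and 56.2% in the middle zone. The median H3K4me3 fold was lower towards the middle as well, 14.6 and 13.1 in the distal and 7.68 and 8.34 in the middle zone. Within regions of a fold of at least 6 the shares with RNAPII were 92.9%, 88.7% and 83.2%, and below 6 they were 45.1%, 31.9% and 24.5%. Between single chromosomes the share of RNAPII regions with H3K4me3 varied from 41.8% on chromosome 9 to 49.3% on chromosome 2, and that of H3K4me3 regions with RNAPII from 69.2% on chromosome 10 to 76.1% on chromosome 2.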

How the data were processed

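ChIP-seq of tomato leaves was analysed from the peak lists, called by the authors in each library separately. According to the study and the submitters' processing notes, reads were trimmed with Trimmomatic 0.38, mapped with Bowtie2 2.3.5 to the M82 assembly, filtered with SAMtools 1.9 at a mapping quality of 30 with duplicates removed, and called with MACS2 2.2.7.1 against 1 input library. The deposited columns used were the fold enrichment ratio at the summit, and the p-value and q-value as −log10. The methods name q of 0.05 and broad peaks; the reporting summary names p of 0.05, and the deposited lists hold narrow peaks up to p of 0.05. Narrow calls on a broad RNAPII signal can split it, so joining across 500 bp was tried.

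Peaks with q of at most 0.05 on chromosomes 1 to 12 were kept, 91.0% to 93.7% of a list. Peaks on the sequence named chrC (60 and 88 for RNAPII, 1 and 0 for H3K4me3) and 2 contig peaks per RNAPII library were left out. MACS2 writes the fold as pileup plus 1 over background plus 1 and p as a Poisson tail, so whole fragment counts could be recovered from the deposited values, for at least 99.99% of peaks in each library. Libraries were matched at summits within 30 bp holding at least 60 fragments together, with the expected ratio taken in 20 levels of pileup. The recovery, the chi-square and the interval operations were checked on simulated data. The lowest background of a library is a relative depth; read totals were not used. Fold was compared between libraries only as values side by side.

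A region was co-occupied when it overlapped, by at least 1 bp, a region of the other target with peaks in both libraries, and apart when no peak of either library lay within 1000 bp. No gene sets or tests were used, as groups count as 1 sample each. Alternatives were all deposited peaks, q of at most 0.01, equal peak numbers, 50% overlap, another apart distance, joined peaks and each library left out. The sites named are the 5 co-occupied H3K4me3 regions with the highest RNAPII fold (lower of both libraries), the 5 apart regions of each target with the highest fold of that target, the 5 longest RNAPII extensions and the 3 widest apart H3K4me3 regions. Members, classes and rules were chosen with earlier results of these data known. Coordinates count from 1 on the M82 assembly of the files. Reference tables of another assembly were not used. Figures were drawn with matplotlib 3.10.9, and values were computed in Python 3.11.15 (pandas 2.3.3, numpy 2.4.6 and scipy 1.17.1).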

Additional observations from a re-analysis of the deposited data

Results flagged for a closer look

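Between 0 h and 6 h, the H3K9ac share moved in opposite directions on the apart classes of unheated leaves. On apart RNAPII regions it changed by -25.2 and -17.7 percentage points between 0 h and 6 h in H3K9ac libraries 1 and 2. On apart H3K4me3 regions it changed by 17.1 and 20.2 points. Both libraries of each class moved the same way, and the difference itself was not tested.

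The sequence named chrC, which no comparison used, held 60 and 88 RNAPII peaks in libraries 1 and 2 at 0 h, against 1 and 0 H3K4me3 peaks. It was singled out as signal in data outside the compared chromosomes.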

How the results depend on the processing

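All deposited peaks or q of at most 0.01 moved none of the 6 main results beyond its limit, which was 1.5 times for a count and the SD over the 4 library pairs for other values. The 4 pairs reuse the same 2 libraries of each target. This SD is therefore only a yardstick for the settings and no spread between plants. Equal numbers of peaks per library gave 11209 apart RNAPII and 8435 apart H3K4me3 regions, 67.4% of RNAPII bp outside H3K4me3, an extension of 717.5 bp and a summit distance of 354 bp. An overlap of at least 50% of the shorter region gave an extension of 419 bp and a summit distance of 293 bp, and peaks joined across 500 bp gave 998 and 366 bp. Apart regions defined by no overlap alone numbered 7523 for H3K4me3. With 5000 bp, an alternative chosen after seeing the data, 6264 RNAPII and 2344 H3K4me3 regions were apart. Leaving out 1 library gave 5406 to 8891 apart H3K4me3 regions, 69.3% to 71.9% of RNAPII bp outside H3K4me3 and an extension of 379 to 660 bp. With 1 library of a target left out, a region of that target needed a peak in the remaining library only. The causes of these changes were not tested. The number of co-occupied RNAPII regions stayed within 1.5 times in every alternative. Apart H3K4me3 regions rested on the fewest fragments over the summit, a median of 25 and 40, and the part of depth in their number was not tested. No paired analysis was possible because no result came from a test and the replicate numbers do not pair RNAPII with H3K4me3 libraries.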

Other observations

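The 2355 apart RNAPII regions without any of the 3 acetylations at 0 h were weaker than the other 18563, with a median fold of 2.22 and 2.27 against 3.65 and 3.72. Their median width was 608 bp, against 668 bp. Even so, 34 of them had a fold of at least 10 in both libraries, against 973 of the others.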
